A study of Mus musculus with 6 samples.

Results

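The miRNAs described here are the 3 hairpins of the mouse miR-106b cluster, Mir106b, Mir93 and Mir25, and a pair of hairpins at other loci, Mir92-2 and Mir32, whose mature miRNA has the same seed as miR-25. They were chosen by gene name, and the 5 rows are 5 of the 1155 rows of the count table. All 5 were among the 283 rows with enough counts to be tested. The libraries came from cultured mouse embryonic fibroblasts, connective tissue cells grown from embryos. There were 3 libraries from Fbxw7 KO cells and 3 from WT cells, numbered 1 to 3 within each genotype, and the labels give neither the number of embryos or cultures nor how Fbxw7 was removed. Each p-value is thus measured against the scatter among these libraries, and that scatter may be technical only. Libraries were read as small RNA, and each value is a number of reads per hairpin, in which both arms of a hairpin are added together.

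FBXW7 is the subunit of an SCF ubiquitin ligase that recognises proteins such as Myc and cyclin E and marks them for degradation. The miR-106b cluster lies within Mcm7, which encodes a subunit of the helicase that opens DNA at replication origins, and Mcm7 is a known target of E2F and Myc transcription factors. miR-106b and miR-93 belong to the miR-17 family and are known in human cells to repress the cell cycle inhibitor p21, while miR-25 is known there to repress the pro-apoptotic protein BIM. miR-25 has also been reported to repress Fbxw7 itself in mouse fibroblasts during reprogramming. Neither mRNA of Mcm7 nor that of Fbxw7 was analysed here.

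The mature sequences are shown because the members fall into a pair of seed families. A miRNA finds its targets mainly through its seed, bases 2 to 8, given here in capitals. The sequences are those of RefSeq on GRCm38.p6, and each is the arm that is usually the abundant one. The first pair share the seed AAAGUGC and the others the seed AUUGCAC.
miR-106b-5p: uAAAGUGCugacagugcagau
miR-93-5p: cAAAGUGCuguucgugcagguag
miR-25-3p: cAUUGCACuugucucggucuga
miR-92a-3p, from Mir92-2: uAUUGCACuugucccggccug
miR-32-5p: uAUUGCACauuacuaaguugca
Compared without gaps from base 1, miR-25-3p and miR-92a-3p were the same at 18 of 21 positions and differed by C1U, U14C and U18C, with the miR-25-3p base first. miR-25-3p and miR-32-5p were the same at 13 of 22 positions, so they share the seed and little of the 3′ part. The miR-106b-5p and miR-93-5p sequences were the same at 16 of 21 positions. One cluster thus carries both seeds.

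The 3 hairpins of the cluster lie on chromosome 5, minus strand, within 498 bases (mm10). Mir106b is at chr5:138165737-138165818, Mir93 at chr5:138165523-138165610 and Mir25 at chr5:138165321-138165404, with 126 bases between Mir106b and Mir93 and 118 between Mir93 and Mir25. In GENCODE M21, Mir106b is intronic in both Mcm7 transcripts that cover it. Mir93 and Mir25 are each intronic in 2 Mcm7 transcripts and fall in an exon of 1 other. Mir92-2 is at chrX:52741838-52741928, minus strand, in the paralogous miR-106a cluster and in no other GENCODE M21 gene. Mir32 is at chr4:56895229-56895298, minus strand, intronic in all 5 Tmem245 transcripts that cover it. All 5 rows have the same coordinates in the count table and in RefSeq.

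A limit of the count applies to Mir92-2. Its hairpin and that of Mir92-1 on chromosome 14 share 22 bases, which hold the whole of miR-92a-3p and are printed in capitals.
Mir92-2: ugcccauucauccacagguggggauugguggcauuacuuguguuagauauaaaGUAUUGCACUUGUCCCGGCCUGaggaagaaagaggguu
Mir92-1: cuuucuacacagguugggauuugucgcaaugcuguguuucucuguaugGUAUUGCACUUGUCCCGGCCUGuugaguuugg
A read that lies within the capitals cannot be assigned to one locus, and the recorded counting command did not switch on the counting of reads with several alignments. Mir92-2 counts are therefore uncertain, and they are not a measure of total miR-92a. For the other 4 members the longest run shared with any other hairpin of the table was 13 bases.

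The libraries held 2932439 to 3753353 counts in Fbxw7 KO and 3707576 to 5019700 counts in WT. Fibroblast and mesenchymal miRNAs, of which 10 of 12 listed were in the table, held 56.1% to 59.1% of the counts in Fbxw7 KO libraries and 54.1% to 55.2% in WT libraries, with Mir22 at 0. The muscle list held 0.0213% to 0.0405% in Fbxw7 KO and 0.0136% to 0.0227% in WT, all of it Mir206, since the other 4 of its 5 rows in the table (Mir1a-1, Mir1a-2, Mir133a-1 and Mir133a-2) stood at 0. Epithelial miRNAs held 0.00168% to 0.00618% in Fbxw7 KO and 0.00211% to 0.00262% in WT. Blood, neuronal, pluripotent, liver and endothelial lists held at most 0.00232% of any library. Rows that are numbered copies of the same miRNA, such as those of Mir1a, Mir133a, Mir9 and Mir124a, share mature sequence. Under the recorded counting options their reads may be missing, so a 0 in these rows does not measure a level. The part of these lists in the results below was not tested. In bulk RNA, fewer cells of a type and less RNA per cell cannot be told apart.

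Within the cluster, Mir93 and Mir106b were higher in Fbxw7 KO and passed the test, whereas Mir25, by far the most abundant of the 3, was higher in every Fbxw7 KO library but did not pass. At the other loci Mir32 was lower in Fbxw7 KO and passed, and Mir92-2 did not pass. Of all 283 tested miRNAs 25.4% passed at an edgeR adjusted p under 0.05, with 15.2% higher and 10.2% lower in Fbxw7 KO, against 2 higher and 1 lower among the 5 members. These were 43 higher and 29 lower, and with scaling factors taken outside the Dlk1-Dio3 region, a large imprinted miRNA cluster, they were 30 higher and 34 lower. With that scaling the median change over the 283 rows was −0.07 on the log2 scale, against 0.05, while the 5 members kept their calls and directions. The Fbxw7 KO and WT libraries did not overlap for 4 of the 5 members, and for 43.8% of all tested miRNAs.

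**Figure D1:**
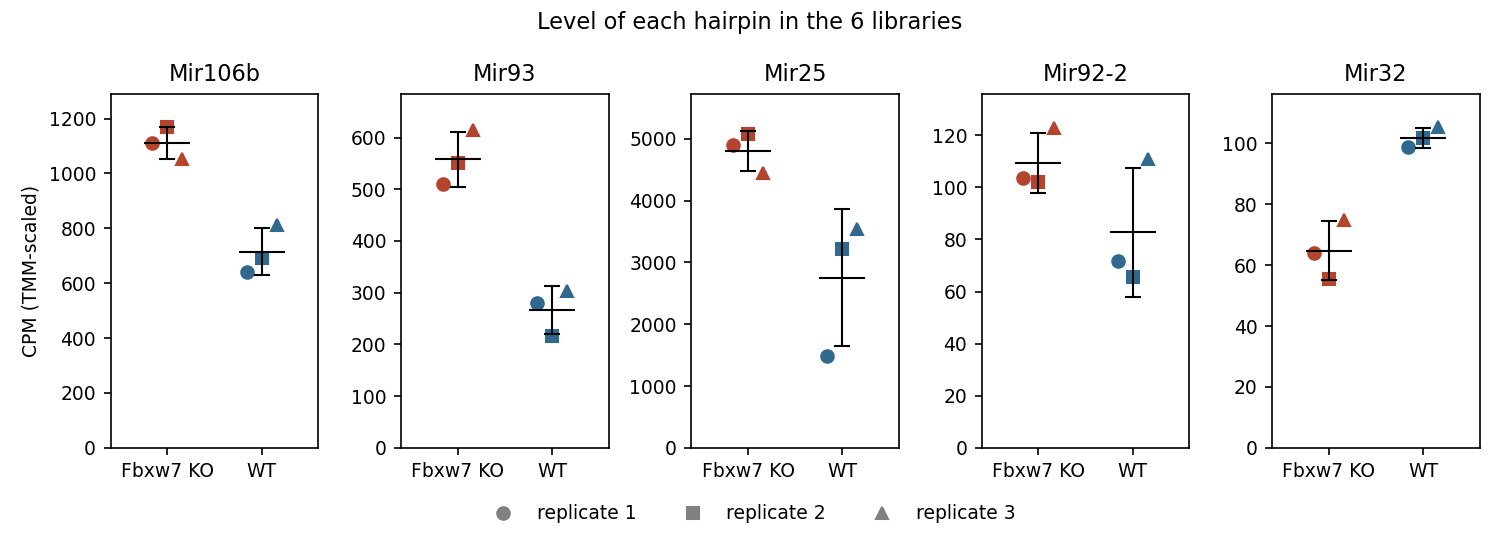
Level of the 5 hairpins in CPM (counts scaled to the TMM-adjusted library totals; y axes start at 0), 1 panel per hairpin, with Fbxw7 KO left of WT; symbols are the replicate libraries, and the black line and bars are the mean ± SD of 3 libraries. All 3 Fbxw7 KO libraries lie above all WT libraries for Mir106b, Mir93 and Mir25 and below them for Mir32, the Mir92-2 libraries overlap, and WT replicate 1 of Mir25 lies at 1483 CPM.

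Mir93 had the largest fitted change of the members on all 6 libraries, and without WT replicate 2 it was level with Mir25 (log2 fold change 0.95 for both). Its level, in counts scaled to TMM-adjusted library totals (CPM), was 509, 551 and 615 CPM in Fbxw7 KO replicates 1 to 3, against 280, 216 and 304 CPM in WT replicates 1 to 3. Every Fbxw7 KO library was above every WT library, and WT replicate 2 was the lowest of the 6. The means were 558 ± 52.9 CPM in Fbxw7 KO and 267 ± 45.7 CPM in WT (SD, n = 3 each), a 2.09-fold difference (95% interval 1.62 to 2.70). On the log2 scale the difference of 1.07 (SE 0.162; adjusted p = 0.00210 in edgeR) ranked 23rd from the highest among the 283 tested miRNAs. Mir93 kept its call without each library in turn, with log2 fold changes of 0.95 to 1.16.

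Mir106b, which is first in the direction of transcription, had a smaller fitted change than Mir93, although their 95% intervals overlapped. It stood at 1111, 1169 and 1054 CPM in Fbxw7 KO replicates 1 to 3 and at 642, 692 and 811 CPM in WT replicates 1 to 3. The genotypes did not overlap, and the Fbxw7 KO libraries lay closer together, with a coefficient of variation of 5.19% in Fbxw7 KO and 12.1% in WT. Mean levels were 1111 ± 57.6 CPM in Fbxw7 KO and 715 ± 86.5 CPM in WT (SD, n = 3 each). This was a 1.55-fold difference (95% interval 1.27 to 1.90), or 0.64 on the log2 scale (SE 0.129; adjusted p = 0.00910 in edgeR). Without Fbxw7 KO replicate 2 the log2 fold change was 0.57 and the call was lost (edgeR adjusted p = 0.0522).

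Mir25, the downstream hairpin of the cluster, had 4899, 5071 and 4451 CPM in Fbxw7 KO replicates 1 to 3, against 1483, 3217 and 3549 CPM in WT replicates 1 to 3. The genotypes did not overlap, but WT replicate 1 lay far below the other WT libraries. The mean was 4807 ± 320.0 CPM in Fbxw7 KO and 2750.0 ± 1109 CPM in WT (SD, n = 3 each), so that the coefficient of variation was 6.66% in Fbxw7 KO and 40.3% in WT. The log2 fold change of 0.81 (SE 0.280, 95% interval 0.17 to 1.44) did not pass over all tested miRNAs (edgeR adjusted p = 0.0700). Leaving out WT replicate 1 gave 0.51 (adjusted p = 0.0569), a smaller difference, and leaving out WT replicate 3 gave 1.03 (adjusted p = 0.0413). DESeq2 called the difference on all 6 libraries (0.77, adjusted p = 0.0321).

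**Figure D2:**
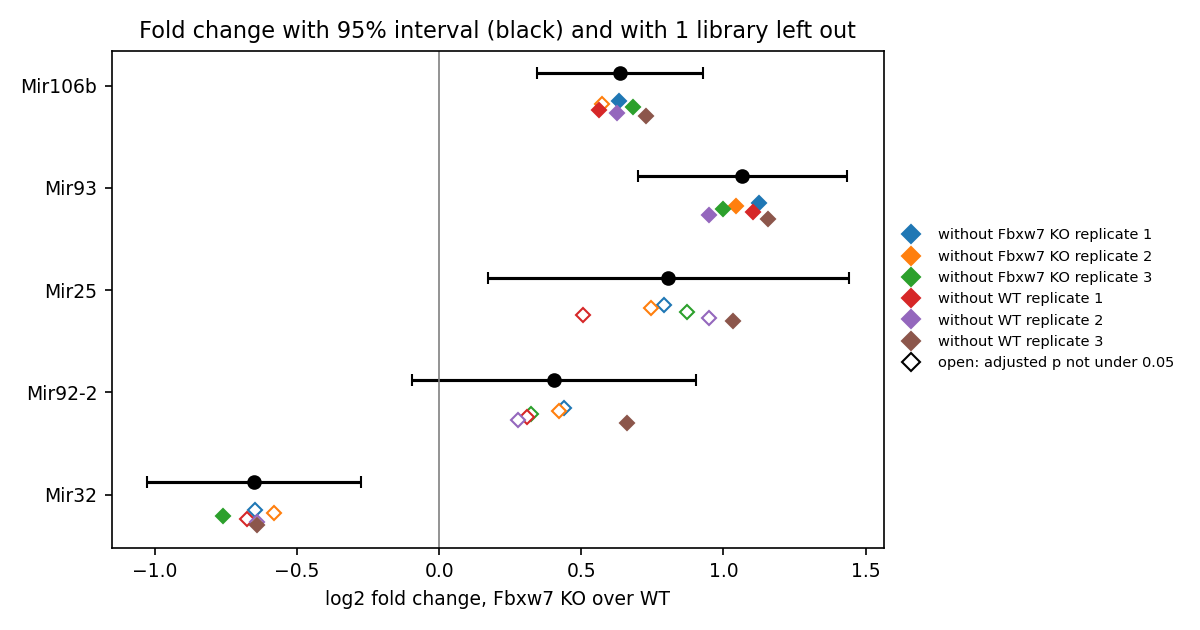
Log2 fold change of each hairpin, Fbxw7 KO over WT (x axis); black points and bars are the fit on all 6 libraries with its 95% interval, and diamonds are the fits with 1 library left out, filled where the edgeR adjusted p was under 0.05. Mir93 is filled throughout, Mir25 spans 0.51 to 1.03, and Mir32 lies between −0.76 and −0.58.

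The low WT library of Mir25 was not shared by its neighbours. In WT replicate 1 the log2 level of Mir25 minus the mean of WT replicates 2 and 3 was −1.19, the lowest such value of all 283 tested miRNAs, for which the 5th and 95th percentiles were −0.64 and 0.59. The next lowest was that of Mir1947, at −0.92, and the highest that of Mir127, at 1.15. In the same library Mir106b was at −0.22 and Mir93 at 0.13, so the hairpins on either side of Mir93 differed in this library although they are known to come from 1 primary transcript. WT replicate 1 had 5019700 counts, the most of the 6 libraries, of which 7393 were of Mir25. This feature was picked after the values had been seen, and its cause was not tested.

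**Figure D3:**
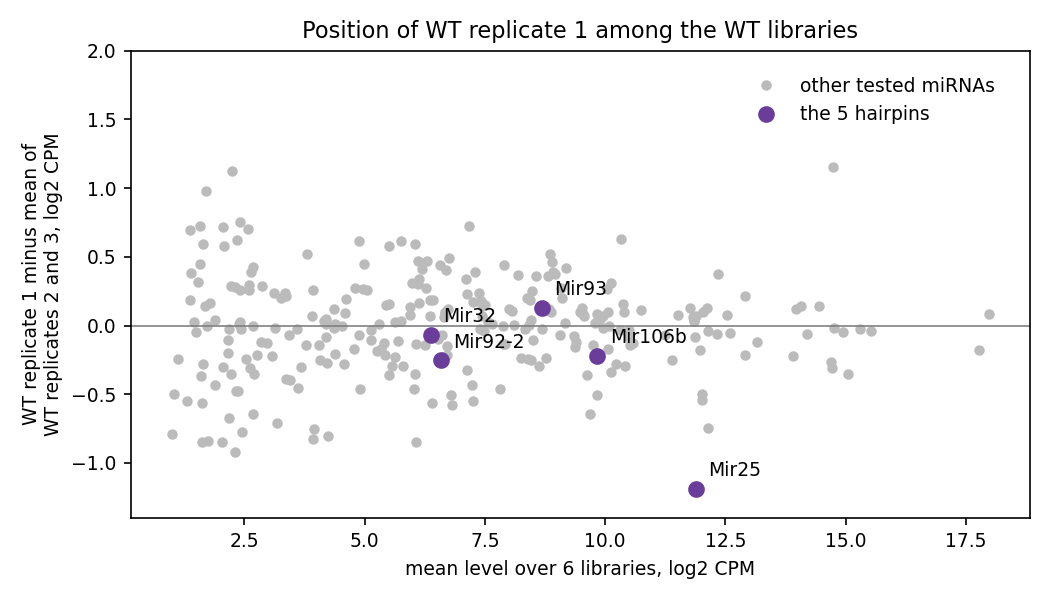
WT replicate 1 minus the mean of WT replicates 2 and 3 in log2 CPM (y axis) against the mean level over the 6 libraries in log2 CPM (x axis), 1 point per tested miRNA, with the 5 hairpins in purple. Mir25 is the lowest point, at −1.19, while Mir106b, Mir93, Mir92-2 and Mir32 lie between −0.25 and 0.13.

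Ratios between hairpins within a library need no scaling between libraries, and they show whether members changed to different extents. The ratio of Mir93 to Mir106b counts was 0.458, 0.471 and 0.583 in Fbxw7 KO replicates 1 to 3, against 0.436, 0.312 and 0.375 in WT replicates 1 to 3. All Fbxw7 KO ratios lay above all WT ratios, by a small margin for WT replicate 1. The mean log2 ratio was higher by 0.43 in Fbxw7 KO (exact 2-sided permutation p = 0.1, which is the minimum with 3 libraries per genotype, and 0.2 adjusted over the 6 ratios compared).

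The ratio of Mir25 to Mir106b was 4.41, 4.34 and 4.22 in Fbxw7 KO replicates 1 to 3, and 2.31, 4.65 and 4.38 in WT replicates 1 to 3. Apart from WT replicate 1, the 5 other libraries lay within 4.22 to 4.65, and the genotypes overlapped. The mean log2 ratio differed by 0.26 (exact permutation p = 0.9), and by −0.061 without WT replicate 1. For Mir25 to Mir93 the difference was −0.17 (exact permutation p = 0.8, adjusted p = 0.9), and its sign also turned when 1 library was left out, to 0.13 without WT replicate 2.

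The cluster as a whole made up a larger share of counts in every Fbxw7 KO library than in any WT library. Mir106b, Mir93 and Mir25 together held 0.659% ± 0.0226 of counts in Fbxw7 KO and 0.368% ± 0.123 in WT (SD, n = 3 each; exact permutation p = 0.1, the smallest possible). Mir25 supplied 74.2% ± 1.27 of the cluster's counts in Fbxw7 KO and 71.9% ± 8.93 in WT, Mir106b 17.2% ± 0.0973 in Fbxw7 KO and 20.3% ± 5.56 in WT, and Mir93 8.66% ± 1.21 in Fbxw7 KO and 7.80% ± 3.39 in WT (SD, n = 3 each). In WT replicate 1 Mir25 held 61.7% of the cluster's counts, the lowest of the 6 libraries.

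Mir32, hosted by Tmem245, which encodes a transmembrane protein, carries the miR-25 seed but went the other way. Its levels in Fbxw7 KO replicates 1 to 3 were 64.0, 55.4 and 74.8 CPM, against 98.7, 102 and 105 CPM in WT replicates 1 to 3. The WT libraries lay within a narrow band and all above the Fbxw7 KO libraries, which were more spread. Mir32 averaged 64.7 ± 9.73 CPM in Fbxw7 KO and 102 ± 3.29 CPM in WT (SD, n = 3 each). Its log2 fold change was −0.65 (SE 0.166, 95% interval −1.03 to −0.28, edgeR adjusted p = 0.0207), and its total was 658 counts in Fbxw7 KO and 1325 in WT. The call was lost when replicate 1 or 2 of either genotype was left out (edgeR adjusted p = 0.0573 to 0.0864), while the log2 fold change stayed within −0.76 to −0.58.

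Mir92-2, with the reservation above, stood at 103, 102 and 123 CPM in Fbxw7 KO replicates 1 to 3 and at 71.6, 65.6 and 111 CPM in WT replicates 1 to 3. WT replicate 3 lay within the Fbxw7 KO range, so the genotypes overlapped. The means were 109 ± 11.6 CPM in Fbxw7 KO and 82.7 ± 24.7 CPM in WT (SD, n = 3 each), with a log2 fold change of 0.40 (SE 0.220, 95% interval −0.09 to 0.90, edgeR adjusted p = 0.216). Without WT replicate 3 the log2 fold change was 0.66 and passed (edgeR adjusted p = 0.0273), so the call depended on 1 library.

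Ratios were also taken among the hairpins with the AUUGCAC seed. There were 76.5, 91.6 and 59.5 Mir25 counts per Mir32 count in Fbxw7 KO replicates 1 to 3, against 15.0, 31.6 and 33.7 in WT replicates 1 to 3. Every Fbxw7 KO ratio was above every WT ratio, and the mean log2 ratio was higher by 1.57, or 2.96-fold (exact permutation p = 0.1, the smallest possible; adjusted p = 0.2). The opposite movement of this pair was known from earlier results of these data. For Mir32 to Mir92-2 the ratio was 0.619, 0.543 and 0.610 in Fbxw7 KO replicates 1 to 3, against 1.38, 1.55 and 0.948 in WT replicates 1 to 3. These also did not overlap, with a difference of −1.10 (exact permutation p = 0.1, adjusted p = 0.2). The Mir25 to Mir92-2 ratio overlapped between the genotypes (0.47, exact permutation p = 0.3, adjusted p = 0.45). It was 0.15 without WT replicate 1 and 0.78 without WT replicate 2.

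**Figure D4:**
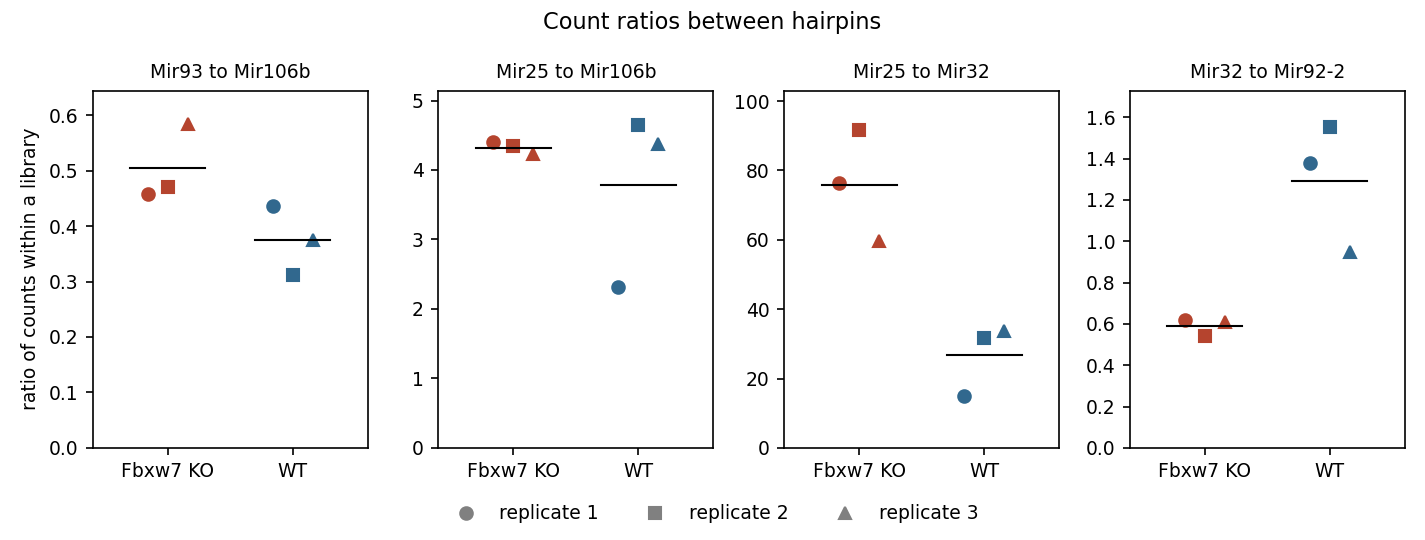
Ratio of counts between pairs of hairpins within a library (y axes start at 0), with Fbxw7 KO left of WT; symbols are the replicate libraries and lines the means of the 3 ratios. The Mir25 to Mir106b ratio lies between 4.22 and 4.65 in all libraries but WT replicate 1 (2.31), and the Mir25 to Mir32 ratio is 59.5 or more in Fbxw7 KO and 33.7 or less in WT.

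Per length, on the deposited FPKM scale, Mir25 was the highest member in both genotypes, at 57672 ± 3322 FPKM in Fbxw7 KO and 32290.1 ± 12638 in WT. Mir106b followed at 13658 ± 544 FPKM in Fbxw7 KO and 8651 ± 1045 in WT, and Mir93 at 6396 ± 624 FPKM in Fbxw7 KO and 3016 ± 584 in WT (SD, n = 3 each). The order of the lowest pair differed between genotypes. Mir92-2 was above Mir32 in all 3 Fbxw7 KO libraries, which averaged 1212 ± 139 FPKM for Mir92-2 and 934 ± 151 FPKM for Mir32, and Mir32 was above Mir92-2 in all 3 WT libraries, which averaged 1444 ± 53.2 FPKM for Mir32 and 904 ± 276 FPKM for Mir92-2. On this scale no neighbours in this order overlapped within a genotype. The order of the lowest pair in WT depends on the division by length, which is 70 bases for Mir32 and 91 for Mir92-2. Before that division, WT replicate 3 had 427 counts of Mir92-2 and 405 of Mir32, and the WT ranges of the pair overlapped in CPM. The Mir92-2 counts also carry the reservation given above.

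Summed by seed, the rows with AAAGUGC held 0.170% ± 0.00547 of counts in Fbxw7 KO and 0.0970% ± 0.0167 in WT, and those with AUUGCAC held 0.508% ± 0.0209 in Fbxw7 KO and 0.290% ± 0.115 in WT (SD, n = 3 each). Neither sum overlapped between the genotypes (exact permutation p = 0.1 for each, the smallest possible, and 0.1 adjusted over the 3 sums). Mir25 alone held 96.3% ± 0.693 of the AUUGCAC counts in Fbxw7 KO and 92.6% ± 3.09 in WT. Mir32 held 1.31% ± 0.277 of that sum in Fbxw7 KO and 3.90% ± 1.76 in WT, so the lower Mir32 hardly entered the sum. Under the recorded counting options, miR-92a-3p reads that align to both loci would be missing from the AUUGCAC sum. Nearly all of the AAAGUGC sum was Mir106b (66.6% in Fbxw7 KO and 72.8% in WT) and Mir93 (33.4% and 27.1%). It therefore repeats these members and is not a total of the seed family. Mir17, Mir20a and Mir106a stood at 0 in it, and the rows of Mir17 and Mir20a overlap that of Mir17hg.

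The rest of the miR-17 family could be followed only in part. The list of the 3 paralogous clusters, the Mir17hg host transcript and their seed relatives holds 19 rows, and leaves out Mir6383, another hairpin with the seed AAAGUGC, which stood at 0 counts. Of the 19 rows 6 were tested, and 2 passed as higher in Fbxw7 KO and 1 as lower, beside 15.2% higher and 10.2% lower over all tested miRNAs, while 3 did not pass. These 6 tested rows were Mir106b, Mir93, Mir25, Mir92-2, Mir32 and Mir92b, so all but Mir92b are the members described above. Their median log2 fold change of 0.52, beside 0.05 over all 283 tested miRNAs, thus mostly repeats the members' own values. All 6 hairpins of the miR-17 cluster stood at 0 counts, and each overlaps the row of its host transcript Mir17hg, and under the recorded options a read over both rows is not counted. Mir106a, Mir18b and Mir367 stood at 0 without such an overlap, whereas Mir20b (3 counts in Fbxw7 KO and 3 in WT), Mir19b-2 (6 in Fbxw7 KO and 1 in WT) and Mir363 (0 in Fbxw7 KO and 3 in WT) had too few counts to test. Mir92b, the remaining tested hairpin with the miR-25 seed, had 27, 22 and 43 counts in Fbxw7 KO replicates 1 to 3 and 56, 38 and 40 counts in WT replicates 1 to 3. Scaled to library totals the genotypes overlapped, with a difference of −0.17 on the log2 scale (SE 0.231; adjusted p = 0.629 in edgeR).

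In a list of 10 hairpins reported to give miRNAs that repress Fbxw7, 6 were tested. Mir32 and Mir182 passed as lower in Fbxw7 KO, 0 passed as higher, and Mir25, Mir92-2, Mir27a and Mir503 did not pass. Over all tested miRNAs 10.2% passed as lower and 15.2% as higher. Mir182 had a log2 fold change of −1.76 (edgeR adjusted p = 0.0169). The median over the 6 tested was −0.08, beside 0.05 over all tested miRNAs. Mir27a, the most abundant of the list, averaged 30264 ± 4258 CPM in Fbxw7 KO and 32703 ± 2626 CPM in WT (SD, n = 3 each; edgeR adjusted p = 0.600). Mir223, which like Mir155 is also on the blood list, had 1 count in Fbxw7 KO and 3 in WT, and Mir155, Mir367 and Mir92-1 stood at 0. The Mir92-1 row overlaps that of Mir17hg and shares miR-92a-3p with Mir92-2, so its 0 does not measure its level.

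Among miRNAs outside the 5, the patterns most like that of the cluster over the 6 libraries were those of Mir582 (Pearson r = 0.968 with the mean of centred log2 CPM of the 3 hairpins), Mir5117 (0.957) and Mir694 (0.951). Their log2 fold changes were 1.83, 0.94 and 3.18, and Mir694 averaged 3.70 CPM in Fbxw7 KO and 0.399 CPM in WT. Mir32 was most like Mir196a-2 (r = 0.968), Mir193a (0.959) and Mir188 (0.946), all with negative log2 fold changes of −0.94, −0.40 and −0.69. For Mir92-2 they were Mir1983 (r = 0.979), Mir7688 (0.942) and Mir34b (0.925). With 6 points in 2 genotypes, a difference between genotypes alone gives high correlations, so these are given as a description. Between members, Mir106b correlated with Mir93 at r = 0.926 and with Mir25 at 0.875, Mir93 with Mir25 at 0.670, and Mir106b with Mir32 at −0.908.

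The start region of Mcm7 is printed because the cluster is known to be transcribed with this gene. It is a RefSeq window of 300 bases around a start site, most of it upstream (GRCm38.p6, chr5:138171834-138172133, minus strand), and capitals mark matches to the E2F letters TTTCGCGC, TTTGGCGC, TTTCCCGC or TTTGCCGC on either strand.
Mcm7: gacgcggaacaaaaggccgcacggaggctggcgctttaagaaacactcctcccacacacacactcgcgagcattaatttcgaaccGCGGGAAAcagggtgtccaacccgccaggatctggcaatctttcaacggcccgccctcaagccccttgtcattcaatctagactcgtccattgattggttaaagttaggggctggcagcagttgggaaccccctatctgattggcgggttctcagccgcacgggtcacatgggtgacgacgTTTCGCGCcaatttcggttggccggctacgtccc
This window held 2 such matches, 1 upstream of the start site and 1 just after it, and the last letter of the downstream match is also the first of a CCAAT match. Of 32851 RefSeq windows of this length, 2.26% held any of these letters. The Myc E-box CACGTG, present in 7.15% of windows, had no match, and CCAAT, present in 37.4%, had 3, all sought on both strands. A second Mcm7 start window and those of Tmem245 and of Kis2, a gene at the miR-106a cluster, held no match to the E2F or E-box letters. A match is a description of letters and was not tested against these data.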

How the data were processed

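Small RNA reads of 6 libraries were counted per miRNA gene name by the authors, and these deposited whole-number counts were the values tested. Per the file headers they were made with featureCounts 1.6.4, grouped by gene name, with strand ignored. The submitters' processing notes name the build mm10 and, with no roles, deepTools, Cufflinks 2.2.1, SAMtools 1.5 and TopHat2 2.1.1. The deposited FPKM values equal the counts divided by length and by TMM-scaled totals in all 1155 rows (relative difference within 1e-06), and were used for levels per length and in alternatives.

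The test was that of edgeR 4.0.16 under R 4.3.3 (robust glmQLFit, glmQLFTest, TMM, 2-sided), with genotype as the only term, after filterByExpr (minimum count 10, minimum total 15). Benjamini-Hochberg values are over the 283 tested rows and are called under 0.05. The SE comes from the F statistic. The test was checked on simulated counts with the same dispersion for every row. That check does not cover a spread as wide as that of Mir25 in WT. Ratios (0.5 added to each count before the log2) and shares used exact permutation tests. Depth was 2932439 to 5019700 counts per library. Likeness is the highest Pearson r of log2 CPM (prior count 2) over 6 libraries. The members, lists and tests were chosen with earlier results of these data known. Lists are the AAAGUGC and AUUGCAC seed rows, the other hairpins of the paralogous clusters, miRNAs reported to target Fbxw7, the Smc4 pair, and cell type markers. All members, tested list rows, the 3 likest rows and the rows next in abundance could be named. Alternatives used other scalings, filters, limma 3.58.1, DESeq2 1.42.0, a replicate block and each library left out.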

Additional observations from a re-analysis of the deposited data

How the results depend on the processing

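Mir93 kept its direction and its call in all 18 alternatives (log2 fold change 0.94 to 1.16). All 5 members kept their direction in all 18. Leaving out 1 library gave 34 to 78 changed miRNAs against 72, with 34 when Fbxw7 KO replicate 2 was left out, 35 for WT replicate 2 and 42 for WT replicate 1. Over these leave-outs the log2 fold change was 0.56 to 0.73 for Mir106b, 0.51 to 1.03 for Mir25, 0.28 to 0.66 for Mir92-2 and −0.76 to −0.58 for Mir32. Mir25 was also called by DESeq2 (0.77), by limma on log2(FPKM + 1) and on log2(FPKM + 0.1) (0.93 in both) and with no low-count filter (0.84, edgeR adjusted p = 0.000135). The cause of these differences was not tested. TMM factors from rows outside the Dlk1-Dio3 region moved the median of all tested miRNAs to −0.07 from 0.05 and the split to 30 higher and 34 lower, and the members' log2 fold changes to 0.51 (Mir106b), 0.94 (Mir93), 0.67 (Mir25), 0.27 (Mir92-2) and −0.78 (Mir32), with the same calls. The Mir25 to Mir106b log2 ratio ranged over −0.061 to 0.44 and that of Mir25 to Mir93 over −0.61 to 0.13 in the leave-outs. Whether the replicate numbers pair the samples could not be decided. Deviations from the genotype means correlated at −0.057, 0.136 and 0.157 for same-numbered libraries and at −0.182 to 0.152 for differently numbered ones. These ranges overlap, and few libraries stand behind them. A replicate block gave 76 changed miRNAs and changed no call among the members. Mir20b, Mir19b-2 and Mir363 had at most 7 counts each over all libraries, and the cause of these low counts was not tested. Mir19b-2 and Mir19b-1 are numbered copies of the same miRNA, so the Mir19b-2 count is uncertain in the way described for Mir92-2.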

Other observations

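Mir15b and Mir16-2 lie together in an intron of Smc4, which encodes a condensin subunit used in mitosis, and so form another pair of hairpins within a cell cycle gene. Both were higher in Fbxw7 KO. Mir15b had 277, 318 and 432 CPM in Fbxw7 KO replicates 1 to 3 and 202, 186 and 189 CPM in WT replicates 1 to 3, a difference of 0.83 on the log2 scale (SE 0.182; adjusted p = 0.0133 in edgeR). Mir16-2 had 104, 129 and 129 CPM in Fbxw7 KO replicates and 84.1, 69.6 and 55.1 CPM in WT replicates, a difference of 0.80 (SE 0.195; adjusted p = 0.0180 in edgeR). Neither overlapped between the genotypes. Over all tested miRNAs 15.2% were called higher and 43.8% did not overlap. The mature miR-16 has another locus, which makes the Mir16-2 count uncertain.

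The hairpins next in abundance to the members were as follows. Next to Mir93 in mean CPM stood Mir328 and Mir380, with log2 fold changes of −0.44 and −0.65, both called as lower in Fbxw7 KO (edgeR adjusted p = 0.0418 and 0.0149). Next to Mir106b stood Mir186, called as higher (0.45), and Mir329, called as lower (−0.50). Beside Mir25 neither Mir7j (0.33) nor Mir221 (−0.44) passed. Beside Mir92-2 stood Mir331 (0.41, not called) and Mir16-2, called as higher. Beside Mir32 neither Mir671 (−0.016) nor Mir669c (−0.43) passed.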
